A study of Mus musculus with 36 samples.

Results

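The differentiation response of a cell line is the change in the level of a gene's RNA between day -2, before the adipogenic mix was added, and day +8, at the end of differentiation. The comparison described here is the difference between this response in Mfn1-/- mouse embryonic fibroblasts (MEFs) and in wild-type (WT) MEFs, that is, the gap between the lines at day +8 minus the gap at day -2 on the log2 scale. It used 12 of the 36 libraries of the study, chosen by line, day and replicate letter (A to C) from the labels: 3 of WT at day -2, 3 of WT at day +8, 3 of Mfn1-/- at day -2 and 3 of Mfn1-/- at day +8. All cells were fibroblasts grown from mouse embryos and kept as lines, so each genotype was 1 line, and an effect of the knockout cannot be told apart from another difference between the lines. Libraries of polyA RNA came from replicates that the study calls independent and biological. All groups were grown to confluence by day -2, and the day +8 groups of both lines then had the same mix of D-pantothenic acid, biotin, rosiglitazone, 3-isobutyl-1-methylxanthine (IBMX), dexamethasone and insulin from day 0, with all but IBMX and dexamethasone given again later in the course. The remaining libraries (day 0 and day +3 of both lines, and day -2 and day +8 of Mfn2-/- MEFs with their own WT libraries, D to F) were used where named.

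MFN1 is a GTPase of the outer mitochondrial membrane that joins mitochondria to each other. Fibroblasts turn into adipocytes when hormones and a ligand of the nuclear receptor PPARγ start a chain of transcription factors, in which C/EBPβ and C/EBPδ come first and PPARγ and C/EBPα follow and maintain each other. These factors switch on genes for taking up, making, storing and releasing fat. Maturing adipocytes also build more mitochondria, whose enzymes supply citrate for fatty acid synthesis and burn part of the fatty acids, while the contractile fibres and matrix genes of the fibroblast are turned down. Response differences and gaps are given on the log2 scale, and levels as normalized counts, reads divided by 1 factor per library. A response difference above 0 means that a gene rose more, or fell less, in the Mfn1-/- line than in WT.

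The targeted gene was read first. Mfn1 (ENSMUSG00000027668, chromosome 3, 32529465 to 32579239 in the GRCm38 build) had 1279, 1457 and 1291 normalized counts in the WT libraries of day -2 and 165, 163 and 188 in those of Mfn1-/-. At day +8 it stood at 841, 819.9 and 919 in WT and at 1152, 754 and 647 in the libraries labelled Mfn1-/-. The groups lay apart at day -2 and overlapped at day +8, so at day +8 the RNA of Mfn1 went against the label. Its own response difference was 2.90 (standard error 0.25, adjusted p = 1.36e-05). Agtr2, an angiotensin receptor, stood at 2691, 3256 and 3612 in WT at day +8 and at 1.45, 2.26 and 0 in the libraries labelled Mfn1-/- (3 reads in all). It stood at 3.61, 1.23 and 0 in Mfn1-/- at day -2. Agtr2 was named for being among the largest falls in the response difference, so its separation at day +8 cannot check the label. Other named genes went both ways. The gap between the lines passed only at day -2 for Cavin2 and Mamdc2, and at both days for Zfp521 and Tnni1. These genes too were named for being called in the response difference, so their gaps cannot check the label either. The line of origin of the day +8 libraries was not tested. The day +8 libraries are called by their label throughout.

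Total reads ran from 10366138 to 37011894 over the 12 libraries. Among the 4 groups, the libraries labelled Mfn1-/- at day +8 varied most: the log2 deviations from the group mean had an SD of 0.46 in library A and 0.47 in library C, against 0.25 to 0.35 in the other 10. The genes with a higher response had a median deviation of 0.34 in library A, -0.06 in library B and -0.27 in library C. Adipocyte markers were measured as a check of the day in the labels. They cannot check the line, because they include Fabp4, which is among the largest rises in the response difference. The summed level of 6 of them (Fabp4, Pparg, Cebpa, Lpl, Slc2a4 and Lipe) ran from 423 to 579 normalized counts in WT at day -2, from 12050 to 15217 in WT at day +8, from 2858 to 6219 in Mfn1-/- at day -2 and from 179080 to 205910 in the libraries labelled Mfn1-/- at day +8. Summed fibroblast markers (9 genes) ran from 425220 to 564740 in WT and from 426750 to 538700 in Mfn1-/- at day -2. They ran from 309190 to 563580 and from 152150 to 262300 at day +8. In RNA from whole cultures, fewer cells of a type and less RNA per cell cannot be told apart.

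Of 13597 genes tested, 2272 passed an adjusted p under 0.01 (16.7%) in the response difference by limma, 1107 of them higher (8.14%) and 1165 lower (8.57%). The median over all genes tested was -0.08. The responses of both lines stood behind this unequally. In WT, 1160 genes (8.53%) passed between day -2 and day +8 (738 up, 5.43%; 422 down, 3.1%), and in Mfn1-/- 4934 (36.3%) did (2352 up, 17.3%; 2582 down, 19%), both after TMM scaling. These fits took 1 spread per gene for all 4 groups, although the libraries labelled Mfn1-/- at day +8 varied most. With library weights per group the counts were 2247 in WT and 3732 in Mfn1-/-, so the size of this inequality depends on the fit. On the authors' own scale, which was set separately for each day, 565 rose and 1911 fell in WT and 1569 rose and 4206 fell in Mfn1-/-. The median change of all genes moved from 0.01 to -0.26 in WT and from -0.06 to -0.33 in Mfn1-/-, so directions within a line are given relative to that of the other genes. Of the 1107 genes with a higher response, 913 (82.5%) rose in Mfn1-/- without passing in WT, 59 rose in both lines, 53 fell in WT alone, 18 fell in WT and rose in Mfn1-/-, and 64 passed in neither. Of the 1165 with a lower response, 802 (68.8%) fell in Mfn1-/- without passing in WT, 162 rose in WT alone, 61 rose in WT and fell in Mfn1-/-, 16 fell in both, 13 rose in both and 111 passed in neither. On the authors' scale the larger classes held 757 and 864 genes. With an unadjusted p under 0.05 as the rule for the responses, they held 686 (62%) and 594 (51%). By that rule 228 of the higher genes fell in WT and rose in Mfn1-/-. Of the lower genes 343 rose in WT and fell in Mfn1-/-. By the gap between the lines, which passed for 2150 genes (15.8%; 9.56% higher, 6.25% lower) at day -2 and 5902 (43.4%; 20.9% higher, 22.5% lower) at day +8, of the higher genes 897 (81%) passed at day +8 and not at day -2, and of the lower genes 760 (65.2%) did. With an unadjusted p under 0.05 as the rule for the gaps, these classes held 679 (61.3%) and 505 (43.3%), and the gaps stood in opposite directions at the 2 days for 235 of the higher and 285 of the lower genes, against 35 and 57 at the adjusted threshold. The count of 2272 moved with single libraries: it was 1416 without WT day -2 library A, 1345 without WT day -2 library B, 1456 without Mfn1-/- day -2 library A, 1377 without WT day +8 library B and 3452 without library C of the libraries labelled Mfn1-/- at day +8.

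**Figure D1:**
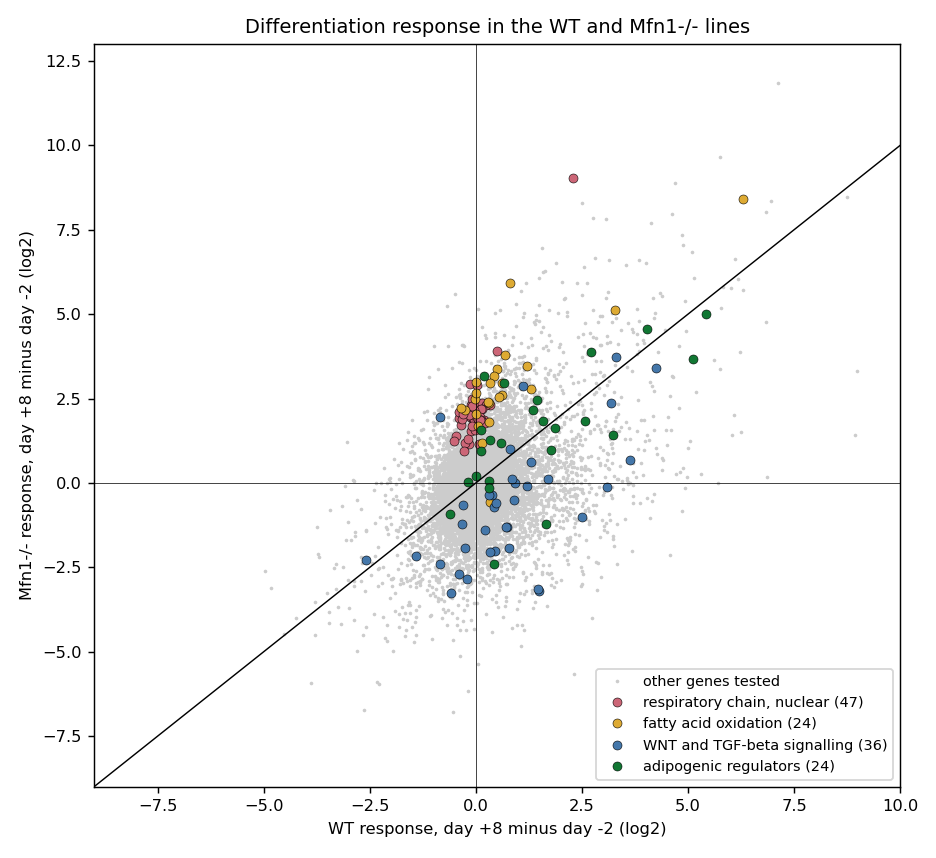
The horizontal axis gives the WT response and the vertical axis the Mfn1-/- response, both as day +8 minus day -2 on the log2 scale after TMM scaling, with 1 point per gene and a line where both are equal. The 47 nuclear genes of the respiratory chain (red) form a column near a WT response of 0, with a median WT response of -0.07 and a median Mfn1-/- response of 1.95, while adipogenic regulators (green) spread along the line.

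The largest rises by the naming rule were genes of fat and energy metabolism next to genes of other kinds. Fabp4 (ENSMUSG00000062515, chromosome 3, 10204088 to 10208576 of GRCm38), the fatty acid carrier that is among the most abundant adipocyte proteins, stood at 57.4, 62.3 and 50.7 in WT at day -2 and 7025, 5729 and 7342 at day +8. In Mfn1-/- it went from 21.6, 27 and 29.7 to 97780.1, 65113 and 85334. Mfn1-/- thus started below WT and ended above it, with no overlap at either day, and the response difference was 4.71 (standard error 0.24, adjusted p = 1.26e-07). Cox7a1 (ENSMUSG00000074218, chromosome 7, 30184144 to 30186078), a cytochrome c oxidase subunit of muscle and brown fat, was near absent in both lines at day -2, with 6 reads in all over the WT libraries and 7 over the Mfn1-/- libraries. At day +8 it stood at 22.6, 12.1 and 3.33 in WT and 3611, 1449 and 869.8 in the libraries labelled Mfn1-/-, a response difference of 6.70 (standard error 0.85, adjusted p = 0.000153), which missed the threshold with edgeR (adjusted p = 0.0458). Sncg, a synuclein found in neurons and adipocytes, stood at 3.62, 2.80 and 2.00 in WT at day +8 and at 768, 659.9 and 339 in the libraries labelled Mfn1-/-, with a response difference of 6.02 (standard error 0.57, adjusted p = 2.21e-05). Ccl9, a chemokine, went from 101, 19.6 and 142 to 1873, 2169 and 2317 in Mfn1-/- against 55.2, 46.8 and 55.5 to 18.1, 17.7 and 59.3 in WT (log2 5.92, adjusted p = 0.000525). Itih4, Plekhg6 and Lctl had response differences of 5.76, 5.05 and 4.64. Arxes1, an adipocyte gene needed for adipogenesis in culture, and Adora1, the adenosine receptor that restrains lipolysis, had 2 reads and 1 read over the 3 Mfn1-/- libraries at day -2, so their fitted values depend on the pseudocount. At day +8 Arxes1 stood at 487, 272 and 176 in the libraries labelled Mfn1-/- and 97.8, 105 and 84.7 in WT. Adora1 stood at 445, 223 and 159 and 40.7, 48.5 and 48. In Adora1, Penk, Lipe, Cebpb and Bcat2, 14.3% to 20.7% of the exon bases are shared with a gene on the other strand, and their values are uncertain because the strand setting of the counting is not given in the sources used here.

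The 300 bases around the start of Cox7a1 and of one Pparg transcript are shown because the first carries the largest rise and the second the receptor that rosiglitazone binds; both come from RefSeq on the GRCm38.p6 build, strand +, running from 250 bases before to 50 bases after the start. Capitals mark matches, on either strand, to TTGCNNAA, a C/EBP-like motif.
Cox7a1 chr7:30183921-30184220: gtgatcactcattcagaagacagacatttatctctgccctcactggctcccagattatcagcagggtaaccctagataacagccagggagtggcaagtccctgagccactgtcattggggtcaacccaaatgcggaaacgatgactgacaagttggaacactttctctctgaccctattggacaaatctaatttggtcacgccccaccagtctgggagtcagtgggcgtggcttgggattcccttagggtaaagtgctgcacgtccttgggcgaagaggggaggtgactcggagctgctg
Pparg chr6:115421816-115422115: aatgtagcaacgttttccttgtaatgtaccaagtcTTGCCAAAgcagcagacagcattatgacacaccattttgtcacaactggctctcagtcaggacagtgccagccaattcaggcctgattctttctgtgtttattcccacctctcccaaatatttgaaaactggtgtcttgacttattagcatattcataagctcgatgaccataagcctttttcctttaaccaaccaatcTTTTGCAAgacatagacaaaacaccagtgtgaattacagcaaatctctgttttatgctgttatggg
The Pparg window held 2 matches, which begin 215 and 16 bases before the start, and the Cox7a1 window held none. The other Pparg windows in the table, which begin at 115360894 and 115362099, held none either, so the window shown is the one of the 6 windows of adipocyte markers with a match. The motif was in 10.8% of 32851 promoter windows of this length. Of the 12 largest rises, 9 matched an entry, and none of their 10 windows held it. Of the 12 largest falls, 6 matched, and 1 of their 10 windows held it (Aldh1a1). AGGTCANAGGTCA, a pair of nuclear receptor half-sites, was in 0.0396% of all windows and in none of these. TATAAA was in 13.6% of all windows, in 2 of the 10 windows of rises and in 1 of the 10 windows of falls. A match is a string of letters and says nothing of binding.

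Of 24 regulators of adipogenesis tested, 3 had a higher response and 1 a lower one, with a median of 0.21. That share called, 16.7%, was the same as over all genes tested. Pparg stood at 79.7, 95.7 and 161 and then 259, 233 and 237 in WT, and at 531, 321 and 471 and then 2329, 1827 and 1735 in Mfn1-/-. It rose in both lines, by a log2 of 1.44 in WT and 2.45 in Mfn1-/-, and was higher in Mfn1-/- at day -2 already, with a gap of 2.00 (adjusted p = 4.07e-05). Its response difference did not pass, at 1.00 (standard error 0.35, adjusted p = 0.0401). Cebpa stood at 5.31, 6.68 and 9.54 and then 299.6, 254 and 305 in WT. In Mfn1-/- it stood at 69.7, 85.8 and 125 and then 2542, 1951 and 2879.5. It rose by 5.43 in WT and 5.00 in Mfn1-/-, and its gap of 3.52 (adjusted p = 3.90e-07) at day -2 was 3.08 (adjusted p = 6.62e-07) at day +8, a response difference of -0.44 (standard error 0.36, adjusted p = 0.366). Klf15, a factor that acts on Pparg and Slc2a4, had a response difference of -1.46 (adjusted p = 0.089), and Cebpb one of 0.93 (adjusted p = 0.0854). The 3 with a higher response were Lpin1 (log2 2.98, adjusted p = 5.86e-05), which is both a coactivator and a phosphatidate phosphatase, Ppargc1b (log2 2.29, adjusted p = 0.00119), a coactivator that drives mitochondrial genes, and Srebf1 (log2 1.44, adjusted p = 0.00404), the master factor of lipogenesis. The call of Srebf1 was lost under 6 of 26 alternatives, among them without any 1 of WT day -2 libraries A and B and Mfn1-/- day -2 libraries A and C. Ppargc1b stood at 95, 90.4 and 70.7 in WT at day +8 and at 530.1, 467 and 273 in the libraries labelled Mfn1-/-, with overlapping groups at day -2. Its relative Ppargc1a had a response difference of -1.83 (adjusted p = 0.014). Klf4, a factor of early adipogenesis and of stem cells, had a lower response (log2 -2.84, adjusted p = 0.00188).

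**Figure D2:**
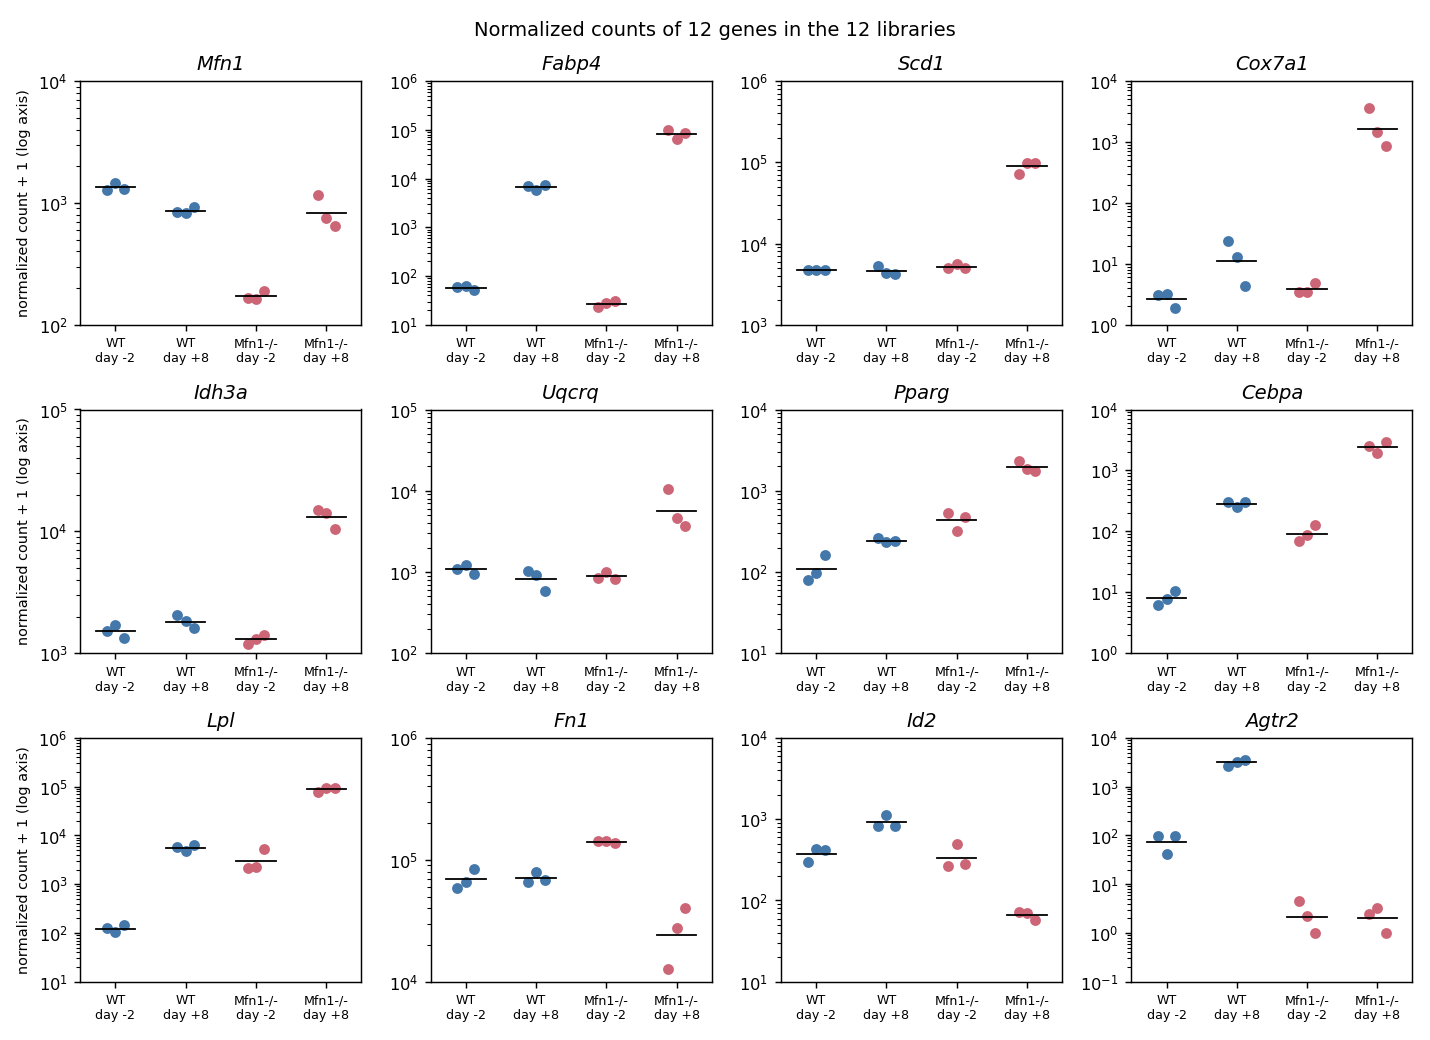
Each panel shows a gene, with normalized count plus 1 on a log axis, 1 point per library (A, B and C from left to right) and a bar at the mean of the log values of 3 libraries, for WT (blue) and Mfn1-/- (red) at both days. Fabp4, Scd1, Idh3a and Uqcrq separate the lines at day +8, Pparg, Cebpa and Lpl are already higher in Mfn1-/- at day -2, and Mfn1 itself overlaps WT at day +8.

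Part of the genes of fat storage had a higher response in Mfn1-/-, as did 8.14% of all genes tested. Of 17 genes of triglyceride synthesis and lipolysis, 11 had a higher response and 0 a lower one (median 2.34). Pnpla2, the first lipase of triglyceride breakdown, stood at 1075, 808 and 1511 in WT at day +8 and 24315, 15115 and 14879 in the libraries labelled Mfn1-/-, from 305, 325 and 339 and 386, 366 and 292 at day -2. It rose in both lines and its response difference was 3.91 (standard error 0.32, adjusted p = 1.16e-05). Lipe, the hormone-sensitive lipase, reached 1159, 894 and 833 in WT and 22615, 15290.3 and 10606 in the libraries labelled Mfn1-/- (log2 3.85, adjusted p = 1.26e-05). The acyltransferases Agpat2 and Dgat2, which build triglyceride, had response differences of 3.09 and 2.99, and Pde3b, the phosphodiesterase through which insulin restrains lipolysis, one of 3.99. Of 15 genes of fatty acid synthesis, 10 had a higher response and 0 a lower one (median 1.42), where 2 rose and 4 fell in WT and 7 rose and 1 fell in Mfn1-/-. Over all genes tested, 5.43% rose and 3.1% fell in WT, and 17.3% rose and 19% fell in Mfn1-/-. Scd1, the desaturase that makes oleate, stood at 4789.6, 4703 and 4697 in WT at day -2, 5241, 4344 and 4236 in WT at day +8 and 5016, 5541 and 5014 in Mfn1-/- at day -2. At day +8 it stood at 72528, 99356 and 98722 in the libraries labelled Mfn1-/-, and its response difference was 4.15 (standard error 0.21, adjusted p = 1.26e-07). Slc25a1, which exports citrate from mitochondria, had a response difference of 2.43 (adjusted p = 3.16e-05) and Acly, which splits that citrate, one of 1.31 (adjusted p = 0.00152), while Fasn, the synthase itself, did not pass (log2 1.01, adjusted p = 0.0122). Of 13 lipid droplet proteins 7 were higher (median 1.33), among them Plin2 (log2 1.62) and Bscl2, or seipin (log2 1.63).

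Lpl and Gpd1 rose in both lines by amounts whose difference did not pass. Lpl, the lipase that frees fatty acids from lipoproteins, stood at 126, 102 and 142 and then 5843, 4775 and 6369.7 in WT and at 2109.9, 2216 and 5398 and then 77594, 93231 and 95021 in Mfn1-/-. It stood higher in Mfn1-/- at each day, and its response difference was -0.60 (standard error 0.41, adjusted p = 0.277). Gpd1, which makes glycerol phosphate, rose by 8.73 in WT and 8.48 in Mfn1-/- (log2 -0.26, adjusted p = 0.742). For the lists that follow, the shares over all genes tested were 8.14% higher and 8.57% lower. Of 14 genes of fatty acid uptake and binding, 3 passed, all higher (Fabp4, Fabp5 and Acsl1; median 0.56). Fabp5 stood at 2294, 2001 and 1694 in WT at day +8 and 8901, 7859 and 7403 in the libraries labelled Mfn1-/-, after 2931, 3384 and 2648 and 563, 572 and 599 at day -2, so the order of the lines turned over without overlap (log2 4.38, standard error 0.20, adjusted p = 6.33e-08). Of 18 insulin and glucose genes, 4 were higher and 2 lower (median 0.28). Slc2a4, the insulin-responsive glucose transporter, reached 288, 165 and 131 in WT and 3045, 1671 and 797 in the libraries labelled Mfn1-/- (log2 2.75, standard error 0.57, adjusted p = 0.00304). Of 17 adipokines and other secreted products, 4 were higher and 1 lower (median 0.64). Angptl4, an inhibitor of LPL, reached 7038, 6764 and 8280.1 in the libraries labelled Mfn1-/- against 409, 324 and 159 in WT (log2 3.09, adjusted p = 0.000118).

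Part of these fat storage results moved with the choice of WT libraries, and the cause was not tested. Under TMM scaling of libraries A to C alone, 11 of the 17 triglyceride genes and 7 of the 13 lipid droplet proteins were higher. With WT libraries D to F of the Mfn2-/- experiment in place of A to C, after TMM scaling, a comparison added after the data were seen, 6 of the 17 triglyceride genes were higher in place of 11, with a median of 0.96, and 4 of the 13 lipid droplet proteins in place of 7. Of the 17 adipokines 2 were then higher and 5 lower, and their median turned from 0.64 to -0.62. Slc2a4 then gave -0.0028 (adjusted p = 0.998) and Acsl1 -0.37 (adjusted p = 0.378), both on the other side of 0. Lpin1, Plin2, Bscl2, Angptl4, Acacb and Srebf1 no longer passed, and Cebpa (log2 -1.96, adjusted p = 0.00336) and Klf15 (log2 -2.84, adjusted p = 0.000884) then had a lower response. The same exchange left 45 of 47 nuclear respiratory chain genes, 27 of 33 genes of the tricarboxylic acid cycle and pyruvate use and 18 of 24 fatty acid oxidation genes with a higher response. Of all 13697 genes tested with WT libraries D to F, 1675 were higher and 1601 lower.

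Of the 32 lists, the nuclear genes of the respiratory chain were the only one in which every member passed. The lists were written with earlier results of these data known, so this count describes the members chosen and is no independent test of the chain. All 47 listed nuclear genes of the respiratory chain and ATP synthase had a higher response, with a median of 2.06 and a range from 1.08 (Atp5j) to 6.70 (Cox7a1). The share of all genes called higher was 8.14%. Within the lines, 8.53% of all genes tested passed in WT and 17.3% rose in Mfn1-/-. The gap at day -2 passed for 15.8% of all genes tested. By limma none of the 47 passed in the WT response (unadjusted p under 0.05 in 3; 0 by edgeR and 1 by DESeq2) and all 47 rose in Mfn1-/-; on the authors' scale 2 fell in WT and 46 rose in Mfn1-/-. At day -2 the gap passed for 0 of them by limma (median -0.19; unadjusted p under 0.05 in 6, all lower; 0 by edgeR and 1 by DESeq2), and at day +8 the lowest of the 3 libraries labelled Mfn1-/- lay above the highest WT library for all 47, against 28.4% of all genes tested. The median of the 47 levels was 1451, 1589 and 1389 in WT at day -2, 1264, 1222 and 1053 in WT at day +8 and 1482, 1488 and 1393 in Mfn1-/- at day -2. It was 7370, 4181 and 3543 in the libraries labelled Mfn1-/- at day +8, with library A the highest. Without that library 46 of the 47 passed.

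The members came from complex I to the ATP synthase. Of 18 subunits of complex I, which takes electrons from NADH, the response difference ran from 1.32 in Ndufs1 to 2.40 in Ndufs7. In complex III, Uqcrq stood at 1094, 1232 and 941 and then 1028, 924 and 577 in WT, and at 851, 1009.8 and 814 and then 10425, 4664 and 3633 in Mfn1-/- (log2 3.06, standard error 0.46, adjusted p = 0.000546). The groups overlapped at day -2 and lay apart at day +8. Cycs, cytochrome c, reached 7804, 4884 and 2672 in the libraries labelled Mfn1-/- against 838, 764 and 444 in WT (log2 3.40, adjusted p = 0.000307). In complex IV, Cox8a and Cox4i1 had response differences of 2.36 and 2.06, and in the ATP synthase, Atp5b one of 2.20.

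Subunits encoded on mitochondrial DNA did not pass. Of 7 tested, 0 passed in either direction by limma or edgeR, 1 by DESeq2 and 1 at an unadjusted p under 0.05, with a median response difference of 0.20 and a range from -0.05 (mt-Nd5) to 1.81 (mt-Nd6). mt-Co1, the catalytic subunit of complex IV, stood at 33579, 24551 and 38417 and then 36074, 38845 and 87131 in WT, and at 29485, 24608 and 36699 and then 42182, 39744 and 92721 in Mfn1-/-. The groups overlapped at day +8, and its response difference was 0.20 (standard error 0.52, adjusted p = 0.795). mt-Cytb, of complex III, gave -0.02 (standard error 0.38, adjusted p = 0.97). Libraries were made from polyA RNA, and the capture of mitochondrial transcripts was not tested. Among the 3 libraries labelled Mfn1-/- at day +8, the median of the 7 was lowest in library A (6779) and highest in library C (17340), the reverse of the order of the nuclear subunits. The same orders stood in WT at day +8, with 14570, 15650 and 21070 for the 7 and 1264, 1222 and 1053 for the nuclear subunits.

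Enzymes that feed electrons into the chain had higher responses too, where 8.14% of all genes tested were higher and 8.57% lower. Of 33 genes of the tricarboxylic acid cycle and of pyruvate use, 28 had a higher response and 1 a lower one (median 1.95). Idh3a, of the NAD-dependent isocitrate dehydrogenase, stood at 1536, 1701 and 1337 and then 2053, 1834 and 1597 in WT, and at 1195, 1305 and 1409 and then 15000.3, 14192 and 10473 in Mfn1-/- (log2 3.07, standard error 0.22, adjusted p = 5.45e-06). The groups overlapped at day -2 and the libraries labelled Mfn1-/- lay above WT at day +8. Pcx, pyruvate carboxylase, reached 23469.5, 20154 and 13968 in the libraries labelled Mfn1-/- against 3893, 3263 and 3099 in WT (log2 3.18, adjusted p = 3.16e-05), and Cs, citrate synthase, had a response difference of 2.91 (adjusted p = 2.21e-05). The gene with a lower response was Pdp1, a phosphatase that activates pyruvate dehydrogenase (log2 -2.29, adjusted p = 0.00195): it rose in WT by 2.05 and did not pass in Mfn1-/- (log2 -0.23, adjusted p = 0.554). None of the 4 pyruvate dehydrogenase kinases tested (Pdk1 to Pdk4) passed. Of 24 genes of fatty acid oxidation, 20 were higher and 0 lower (median 2.18). Acadm, the medium-chain dehydrogenase, stood at 1354, 1247 and 1059 in WT at day +8 and 9923, 6974 and 4749 in the libraries labelled Mfn1-/- (log2 3.11, standard error 0.29, adjusted p = 2.08e-05). Of the carnitine transferases that carry fatty acids in, Cpt1b had a response difference of 5.10 (adjusted p = 0.00185), Cpt2 one of 2.43 (adjusted p = 0.000126) and Cpt1a one of -0.92 (adjusted p = 0.0408). Cpt1b rested on few reads at day -2, 27 in WT and 6 in Mfn1-/-. Of 18 genes that break down branched-chain amino acids, 11 were higher and 1 lower (median 1.05). The lower one was Bcat1, the cytosolic transaminase (log2 -1.58), whose call was lost under 11 of 26 alternatives, and its mitochondrial counterpart Bcat2 was higher (log2 1.75).

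**Figure D3:**
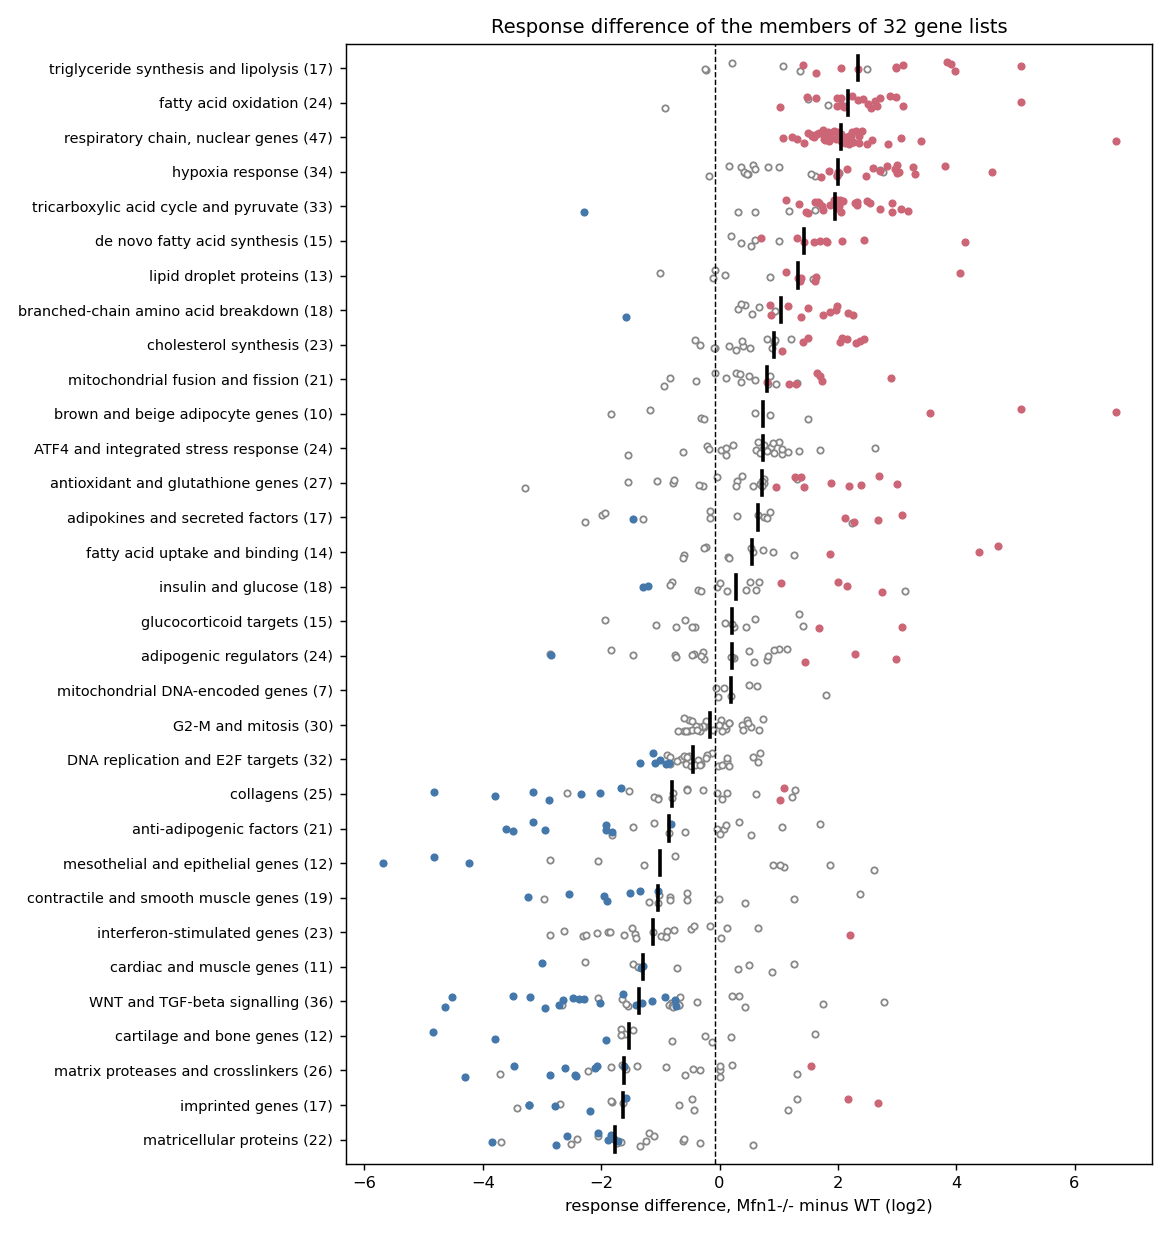
Each row is a gene list with the number of its members tested, and each point a member's response difference on the log2 scale, filled where it passed an adjusted p under 0.01 (red higher, blue lower) and open otherwise. Bars mark the list median and the dashed line the median of all genes tested (log2 -0.08). All 47 nuclear respiratory chain genes are filled to the right, and 18 of 36 WNT and TGF-beta genes are filled to the left.

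Genes that shape mitochondria passed in part, where 8.14% of all genes tested were higher and 8.57% lower. Of 21 genes of fusion, fission and cristae, 7 were higher and 0 lower (median 0.80). Besides Mfn1 they included Mfn2 (log2 1.29, standard error 0.22, adjusted p = 0.00105), its partner in fusion, and Immt and Chchd3, which shape cristae (log2 1.70 and 1.73). Mfn2 stood at 1267, 1222 and 1193 in WT at day +8 and 2809, 2543 and 1723 in the libraries labelled Mfn1-/-. Opa1, Fis1 and Dnm1l, which fuse the inner membrane, mark fission sites and divide mitochondria, gave 0.86 (adjusted p = 0.0195), 0.59 (adjusted p = 0.0704) and 0.10 (adjusted p = 0.737), and Opa1 passed under 8 of 27 alternatives. Of 27 antioxidant genes, 9 were higher and 0 lower (median 0.71), led by the superoxide dismutases Sod3 (log2 3.00), Sod2 (log2 2.69) and Sod1 (log2 2.39). Of 24 genes of the ATF4 stress response, 0 passed by limma or edgeR, 1 by DESeq2 and 2 at an unadjusted p under 0.05, with a median of 0.73, and 10 were higher without library C of the libraries labelled Mfn1-/- at day +8. Of 10 brown and beige adipocyte genes, 3 were higher and 0 lower (Cox7a1, Cpt1b and Kcnk3; median 0.73), and 1 was higher by edgeR, where Cox7a1 and Kcnk3 (adjusted p = 0.01002) missed the threshold. Kcnk3, a potassium channel of brown adipocytes, reached 5079.8, 3386 and 2616 in the libraries labelled Mfn1-/- against 93.2, 38.2 and 69.3 in WT (log2 3.56, adjusted p = 0.000645).

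Glycolytic and other hypoxia-responsive genes also had higher responses, where 8.14% of all genes tested were higher. Of 34 tested, 18 were higher and 0 lower (median 2.00), and 10 and 11 were higher without WT day -2 library B and Mfn1-/- day -2 library A. Aldoa, aldolase, stood at 7660.0, 4654 and 4882 in WT at day +8 and 157150.0, 88628 and 59528 in the libraries labelled Mfn1-/- (log2 3.30, standard error 0.43, adjusted p = 0.000193); the annotation gives this symbol to a pair of neighbouring genes. Egln3, the oxygen sensor that HIF induces, reached 10335, 7909.6 and 4098 against 299, 106 and 66 (log2 3.81, adjusted p = 0.00164). Car9, a carbonic anhydrase and a classical HIF target, stood at 2348, 1444 and 285 in the libraries labelled Mfn1-/- and 18.1, 16.8 and 3.33 in WT (log2 4.61, standard error 1.09, adjusted p = 0.00734). Its level in library C lay far below that in library A, and its call was lost under 11 of 26 alternatives. Vegfa, the angiogenic factor, had a response difference of 1.71 (adjusted p = 0.00036). Cholesterol synthesis differed in its direction in WT. Of 23 genes, 0 rose and 15 fell in WT, against 5.43% and 3.1% of all genes tested. In Mfn1-/- 4 rose and 6 fell, against 17.3% and 19%. On the authors' scale, 565 of all 13597 genes rose and 1911 fell in WT, and 1569 rose and 4206 fell in Mfn1-/-. Of the 23, 0 rose and 20 fell in WT, and 2 rose and 9 fell in Mfn1-/- on that scale. The response difference was higher for 9 and lower for 0 (median 0.92), and 5 were higher without any 1 of WT day -2 libraries B and C, Mfn1-/- day -2 libraries A and C, WT day +8 libraries A and B and day +8 library A labelled Mfn1-/-. Nsdhl, a sterol dehydrogenase, stood at 1435, 1544 and 1386 and then 358, 358 and 546 in WT, and at 364, 519.6 and 485 and then 784, 715 and 605 in Mfn1-/-. It fell in WT and rose in Mfn1-/-, with no overlap between the days in either line (log2 2.44, standard error 0.26, adjusted p = 4.94e-05), and on the authors' scale its rise in Mfn1-/- missed the threshold (adjusted p = 0.0107).

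Among the 12 largest falls by the naming rule, Penk and Igfbp2 had the lowest values. Igfbp2, which binds insulin-like growth factors, stood at 0, 0 and 4.77 in WT at day -2 and 833, 979 and 489 at day +8, and at 27.7, 11 and 25.8 and then 53.6, 42.9 and 40.5 in Mfn1-/- (log2 -7.54, standard error 0.84, adjusted p = 6.85e-05). It held 11 reads in all over the WT libraries of day -2, so its fitted value depends on the pseudocount. The rise in WT passed and that in Mfn1-/- did not (log2 1.41, adjusted p = 0.0602). Penk, which encodes enkephalins, went from 2111, 1279 and 1712 to 5.79, 29.4 and 99.8 in Mfn1-/- and from 135, 60.1 and 119.7 to 314, 438 and 499 in WT (log2 -7.96, standard error 1.01, adjusted p = 0.000213). The order of the lines turned over between the days, without overlap. Aldh1a1, a retinaldehyde dehydrogenase, rose in both lines, from 2.12, 5.57 and 14.7 to 2721, 2284 and 3963 in WT and from 114, 76 and 137 to 739, 614 and 1477 in Mfn1-/- (log2 -5.69, standard error 0.71, adjusted p = 0.000203). Nptx1, a pentraxin, stood at 1931, 1409 and 1005 in Mfn1-/- at day -2 and 5.79, 11.3 and 13.5 at day +8. WT stood at 39.3, 42.3 and 29.5 and then 26.2, 23.3 and 14.7 (log2 -6.25, adjusted p = 8.89e-06), between the Mfn1-/- values of both days. Scara5, Edil3, Mamdc2 and Fer1l6 had response differences of -6.73, -5.89, -5.74 and -5.93. Scara5 held 9 reads in WT at day -2 and Fer1l6 8 in the libraries labelled Mfn1-/- at day +8, so both values depend on the pseudocount.

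Of the 61 genes that rose in WT and fell in Mfn1-/-, 42 did so on the authors' scale as well, and of the 18 that fell in WT and rose in Mfn1-/-, 6 did. Ace, the angiotensin-converting enzyme, rose in WT from 27.6, 16.7 and 52.5 to 162, 154 and 179. It fell in Mfn1-/- from 2277, 3625 and 7367 to 95.6, 279 and 315, and its response difference was -6.73 (standard error 0.73, adjusted p = 8.94e-05). Nrk, a kinase, rose in WT by 3.34 and fell in Mfn1-/- by 2.40 on the log2 scale (log2 -5.74, standard error 0.70, adjusted p = 0.000177). Id2, an inhibitor of basic helix-loop-helix factors, stood at 295, 429 and 418 and then 815, 1127 and 829 in WT, and at 263, 491 and 279 and then 71, 70.1 and 56.1 in Mfn1-/-. It overlapped at day -2 and lay apart at day +8 (log2 -3.60, standard error 0.34, adjusted p = 2.21e-05). Prkg1, the cGMP-dependent kinase, stood at 312, 258 and 162 in WT at day +8 and 1.45, 0 and 1.04 in the libraries labelled Mfn1-/- (2 reads in all), after 12.7, 5.57 and 17.3 and 18, 4.90 and 3.87 at day -2.

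Part of the matrix, contractile and signalling genes had a lower response, where 8.57% of all genes tested were lower and 8.14% higher. Of 22 matricellular proteins, 8 were lower and 0 higher (median -1.76), and 5 and 4 were lower without WT library B of day -2 and of day +8. Fn1, fibronectin, stood at 59228, 66350.0 and 84249 and then 65227, 79144 and 68679.8 in WT, and at 141574, 143552 and 138691 and then 12739, 27606 and 40181 in Mfn1-/- (log2 -2.58, standard error 0.44, adjusted p = 0.000957). Mfn1-/- was above WT at day -2 and below it at day +8, with no overlap. Of 26 matrix proteases and crosslinkers, 9 were lower (median -1.61), and 5 were lower without any 1 of WT day -2 libraries A and B, Mfn1-/- day -2 library C and WT day +8 library B, against 15 without day +8 library C labelled Mfn1-/-. Mmp2, a gelatinase, rose in WT from 1677, 1053 and 1638 to 10182, 9515 and 8907 and fell in Mfn1-/- from 14525, 12094 and 17671 to 3857, 3846 and 8194 (log2 -4.30, standard error 0.38, adjusted p = 1.79e-05). Of 25 collagens, 7 were lower and 2 higher (median -0.80). The abundant fibrillar collagens Col1a1 (log2 -1.05, adjusted p = 0.0989) and Col3a1 (log2 -0.28, adjusted p = 0.726) did not pass, Col12a1 (log2 -3.15) and Col8a2 (log2 -4.82) were lower, and Col6a1 (log2 1.02) and Col6a2 (log2 1.10) were higher, with calls lost under 7 and 13 of 27 alternatives. With WT libraries D to F, 13 collagens were lower, Col1a1 and Col3a1 among them, as were 1601 of all 13697 genes tested. Of 19 contractile genes, 7 were lower and 0 higher (median -1.04), and 4 were lower without WT day -2 library A. They included Mylk, the myosin light chain kinase (log2 -3.24), and Flna, which crosslinks actin (log2 -1.95).

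Of 36 genes of WNT and TGF-beta signalling, 12 rose in WT, against 5.43% of all genes tested, and 16 fell in Mfn1-/-, against 19%. On the authors' scale 8 rose in WT and 20 fell in Mfn1-/-, as did 565 and 4206 of the 13597 genes tested. In the response difference, 18 of the 36 were lower and 0 higher (median -1.35). The share of all genes called lower was 8.57%. They spanned ligands, receptors and transducers: Bmp2 (log2 -4.52), Wnt5a (log2 -3.50), Tgfb2 (log2 -2.03) and Tgfb3 (log2 -2.47), the receptors Tgfbr1 (log2 -2.38) and Fzd1 (log2 -2.71), and Smad3 (log2 -1.63) and Lef1 (log2 -2.28), which carry the signals to genes. The count was 8 without WT library B of either day, and 11 without any 1 of WT day -2 library A, Mfn1-/- day -2 libraries A and C and WT day +8 library A. It was 11 with WT libraries D to F, where 1601 of all 13697 genes tested were lower. Wnt5a stood at 1343, 1570.0 and 1338 in WT at day +8 and 36.2, 14.7 and 16.6 in the libraries labelled Mfn1-/-, and its call was lost under 10 of 26 alternatives. Of 21 factors that restrain adipogenesis, 8 were lower and 0 higher (median -0.85), and 4 were lower without any 1 of WT day -2 libraries A and B, the WT day +8 libraries and day +8 library B labelled Mfn1-/-. Zfp521, which blocks the adipogenic factor EBF1, stood at 3248, 3327 and 2875 in WT at day +8 and 15.9, 11.3 and 14.5 in the libraries labelled Mfn1-/-, and was already at 171, 76 and 25.8 against 1194, 1591 and 2544 at day -2 (log2 -3.15, adjusted p = 0.00619, lost under 9 of 27 alternatives). Of 32 genes of DNA replication, 6 were lower and 0 higher (median -0.45), with 2 or 3 lower without any 1 of WT day -2 libraries A and B, Mfn1-/- day -2 library A and WT day +8 libraries A and B. Of 30 genes of mitosis 0 passed by limma, edgeR or DESeq2 and 6 had an unadjusted p under 0.05 (median -0.17).

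Some genes of other lineages changed with the response, where 8.57% of all genes tested were lower. Of 11 cardiac and muscle genes 3 were lower, with Tnni1, a troponin, going from 1179, 1361 and 1794 to 42, 75.7 and 144 in Mfn1-/- (log2 -3.00, lost under 14 of 27 alternatives) and Gata4 from 2437, 2031 and 2076 to 1024, 1118 and 1112 (log2 -1.32). Of 12 cartilage and bone genes 3 were lower (Col9a2, Col2a1 and Sox9), and of 12 mesothelial and epithelial genes 3 (Aldh1a1, Upk1b and Cdh1). The summed level of 4 epithelial markers ran from 303 to 742 in Mfn1-/- at day -2 and from 40.6 to 61.3 in the libraries labelled Mfn1-/- at day +8, with WT between 12.1 and 48.9 at both days. Of 3 macrophage markers in the table, Csf1r stood at 4.16 or less in each library labelled Mfn1-/- at day +8 and Cd14 at 20.8 or less, while Cd68, which adipocytes can also express, was higher (log2 2.69, adjusted p = 0.000247). Their part in the response difference was not tested. The adipocyte genes Adipoq, Plin1, Cidec, Cfd and Cd36 were not analysed here.

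The course of the gap was read at day 0 and day +3. The gap between the lines changed for 105 of 14002 genes from day -2 to day +3 (0.75%; 13 or 0.0928% higher, 92 or 0.657% lower) and for 1157 from day +3 to day +8 (8.26%; 649 or 4.64% higher, 508 or 3.63% lower). Of the 47 nuclear respiratory chain genes, 0 passed by limma in the first interval, with 12 higher at an unadjusted p under 0.05, and 39 did in the second, all higher. The median gap of these genes was -0.19 at day -2, 0.12 at day 0, 0.39 at day +3 and 1.88 at day +8. For fatty acid oxidation it was 0.11, 0.20, 0.56 and 2.52 at the same days. For the 24 adipogenic regulators it was 0.89, 0.24, 0.04 and 0.89, lower in between than at either end. Some of the largest falls passed in the first interval. For Igfbp2 the gap changed by -8.07 (adjusted p = 0.000148) from day -2 to day +3 and by 0.53 (adjusted p = 0.73) from day +3 to day +8, and for Ace by -8.45 (adjusted p = 9.51e-06) and 1.72 (adjusted p = 0.13). The first value of Igfbp2 depends on the pseudocount, with 11 reads in all in WT at day -2. Both intervals use the day +3 libraries, with opposite signs. Their counts were not compared by a test, and the first ran from 27 without WT day -2 library B to 207 without WT day +3 library C.

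**Figure D4:**
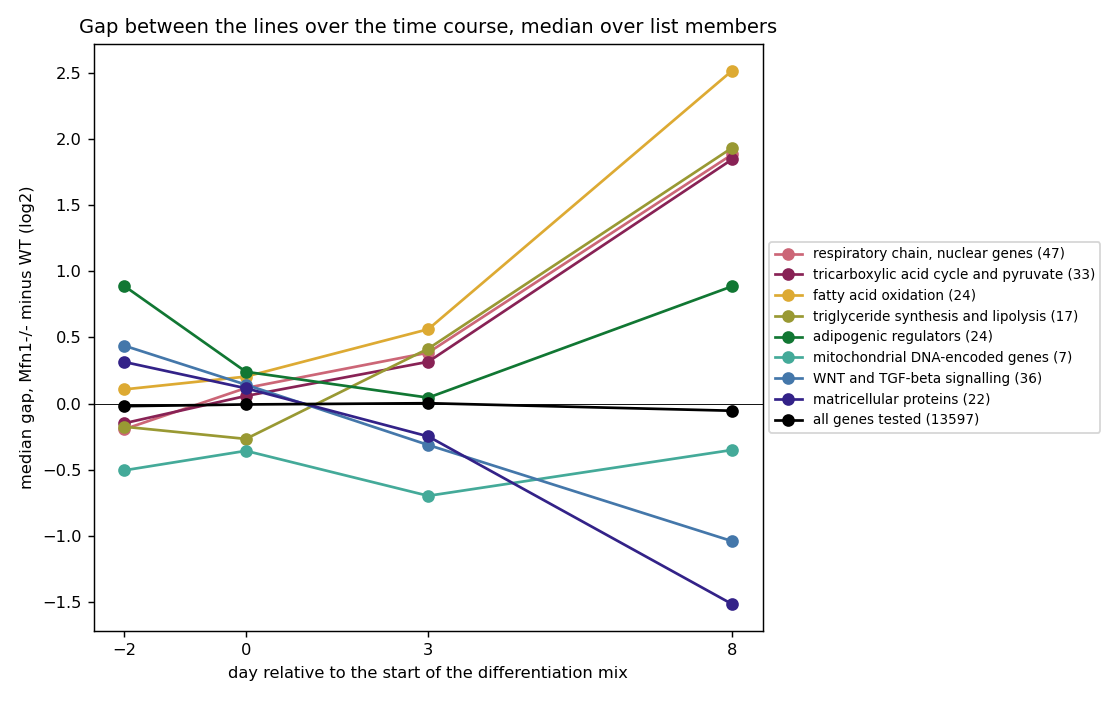
The horizontal axis gives the day and the vertical axis the median, over the members of a list, of the Mfn1-/- minus WT difference on the log2 scale. Genes of the respiratory chain, the tricarboxylic acid cycle, fatty acid oxidation and triglyceride metabolism stay between -0.27 and 0.56 up to day +3 and reach 1.85 to 2.52 at day +8. Mitochondrial DNA-encoded genes stay below 0 at each day.

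The response difference of Mfn1-/- was set against that of Mfn2-/- MEFs, each taken from its own WT libraries. The difference between them passed for 2762 of 14050 genes (19.7%; 1333 or 9.49% higher in Mfn1-/-, 1429 or 10.2% lower). The libraries of the Mfn2-/- experiment were left out of the main fit because they were described as less variable. Pooling them here can understate the spread of the Mfn1-/- part. Differences between the 2 WT sets, such as those given above for Slc2a4 and Cebpa, also enter this comparison. Of the 47 nuclear respiratory chain genes, 46 were higher in Mfn1-/- and 0 lower (median 2.00), and in the response difference of Mfn2-/- itself, which passed for 2864 genes (20.4%; 10.1% higher, 10.3% lower), 1 was higher and 1 lower (median -0.02). Of the 24 fatty acid oxidation genes, 22 were higher in Mfn1-/- (median 3.30), with 0 higher and 7 lower in Mfn2-/- itself (median -0.86). Of the 17 triglyceride genes, 13 were higher in Mfn1-/- (median 4.33), with 0 higher and 10 lower in Mfn2-/- itself (median -1.49). Pparg and Cebpa, whose Mfn1-/- response did not differ from WT past the threshold, were higher than in the Mfn2-/- comparison (log2 2.91, adjusted p = 0.000246, and log2 5.09, adjusted p = 1.90e-07). For Igfbp2 (log2 -0.21, adjusted p = 0.905) and Nrk (log2 -0.08, adjusted p = 0.949) the difference between the knockouts did not pass. Of 30 genes of mitosis 20 were lower and 0 higher in Mfn1-/- than in Mfn2-/- (median -1.11), where 24 were higher in Mfn2-/- itself.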

How the data were processed

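PolyA RNA of cultured MEFs was sequenced in 36 libraries, of which 12 in 4 groups of 3 entered the main comparison. Per the paper's methods the authors trimmed reads with cutadapt, aligned them to GRCm38 with STAR, sorted with SAMtools and counted genes with featureCounts (versions and strand setting not given in the sources used here). The deposited signal values are gene counts divided by 1 factor per library. In all 36 libraries 100% of the values came out as whole reads within 0.01 of a read, and the factors differed by at most 1.13% from size factors of 6 blocks of 6 libraries. Library totals of the 12 were 10366138 to 37011894 reads.

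Genes that reached 10 normalized counts in 3 or more of the libraries were fitted as log2(value + 1) with limma 3.58.1 (R 4.3.3; trend, robust), with 8 residual degrees of freedom, and called at a Benjamini-Hochberg adjusted p under 0.01. Because of the pseudocount of 1, these fold changes understate the change of low genes. Changes within a line were fitted on reads rescaled by TMM (edgeR 4.0.16), the gap changes at day +3 in the 24 libraries of both lines, and the comparison with Mfn2-/- in a separate fit of 24 libraries. On simulated data with 13597 genes the response difference test called 4 of 67 genes given a 2-fold difference and 46 of 66 given a 4-fold one, and 0 other genes. The simulation gave all groups the same spread per gene, had no effect of replicate letters and gave a difference to few genes. Its rates therefore need not hold for these data. P-values measure the spread between replicates of 1 line per genotype. The replicate letters were not used as pairs. Alternatives were other pseudocounts, filters, scalings, fits, tools (DESeq2 1.42.0, edgeR on the recovered reads), thresholds, WT sets, and each library left out.

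Genes were named by a rule: the 12 largest rises and falls with a mean of at least 100 in the highest group, up to 3 each way in each of 32 lists, genes the study names, and cell markers. Members and lists were chosen with earlier results of these data known, and other genes of the lists were named for their role after their values were seen. Positions and IDs came from GENCODE M21, which held 99.81% of the 14761 symbols, and promoters from RefSeq of the GRCm38.p6 build. Identical repeated lines of 19 symbols were used once. A result for 1 gene of the protease list is not reported here.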

Additional observations from a re-analysis of the deposited data

Results flagged for a closer look

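The responses of the lines differed for 2272 genes by limma, which tested the difference itself. The gap between the lines changed for 105 genes from day -2 to day +3 and for 1157 from day +3 to day +8, and the response difference of Mfn1-/- differed from that of Mfn2-/- for 2762 genes. At the adjusted threshold, opposite movement was called for 61 genes that rose in WT and fell in the libraries labelled Mfn1-/-. It was called for 18 that fell in WT and rose there (343 and 228 at an unadjusted p under 0.05). Among them the response difference was -6.73 on the log2 scale for Ace, -5.74 for Nrk, -4.30 for Mmp2, -3.60 for Id2 and 2.44 for Nsdhl. Prkg1 gave -6.58, a value that depends on the pseudocount because the libraries labelled Mfn1-/- at day +8 held 2 reads in all. With 3 libraries per group, no gap test of the highest or lowest library was run.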

How the results depend on the processing

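With all 36 libraries in the fit 3823 genes differed in response, the WT response held 2186, and the gap changes to day +3 and from day +3 held 298 and 2245. An adjusted p under 0.001 with a log2 size over 1.5 left 594 genes in the response difference, 822 and 1983 in the gaps at day -2 and day +8, and 287 and 1386 in the WT and Mfn1-/- responses. Library weights per group gave 3578 genes in the gap at day -2, 2247 in the WT response and 3732 in the Mfn1-/- response. DESeq2 gave 2049 in the WT response and 295 and 1803 in the gap changes, and 3315 in the response difference, against 2162 by edgeR. The WT response held 2476 genes on the authors' scale and 3480 with all 6 WT libraries of each day. The WT libraries D to F, an alternative chosen after seeing the data as was the restriction to genes without overlap on the other strand (1521 genes), gave 3276 and reversed Acsl1 to -0.37 and Slc2a4 to -0.0028. The cause of these shifts was not tested.

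With 1 library left out, the response difference ran from 1345 to 3452 genes, the gap at day -2 from 1419 to 2668 and at day +8 from 4574 to 6245, the WT response from 451 to 1574, the Mfn1-/- response from 3534 to 5301, the gap changes from 27 to 207 and from 672 to 1918, and the difference from the Mfn2-/- response from 2343 to 3744. Same-letter libraries deviated together in 9 of 18 pairs (r over 0.1; range -0.04 to 0.31), and 11 of 12 libraries correlated best with their own letter, a hint from the data and not the design. With the replicate block the counts were 2676 in the response difference, 2419 and 6213 in the gaps, 1512 and 5242 in the WT and Mfn1-/- responses and 126 and 1426 in the gap changes, and Opa1 passed (adjusted p = 0.00924). No paired analysis was possible for the difference from Mfn2-/- because its columns could not be tied to the letters of the labels.

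Of 111 named genes called, 66 passed in each alternative run for them (up to 27) and 45 missed the threshold in at least 1; of 29 not called, 10 passed in at least 1. Library depth limits genes with few reads, and with 3 libraries per group the test recovered few 2-fold differences in simulated data. An absent call is no sign of equal responses.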

Other observations

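Imprinted genes and genes of antiviral defence were also measured, where 8.14% of all genes tested had a higher response and 8.57% a lower one. Of 17 imprinted genes, which are expressed from 1 parental copy, 2 had a higher and 5 a lower response (median -1.64, or -0.93 with members without reads in a group set to their bound). The lower ones were Rian, Peg3, Mirg, Igf2r and Ndn, with values of -3.23, -3.22, -2.78, -2.20 and -1.57 on the log2 scale. Rian, Peg3 and Mirg, the first and the last of which are noncoding RNAs of the Dlk1-Meg3 domain, were 3.54 to 7.98 higher in Mfn1-/- than in WT at day -2 and lost their calls under 10, 11 and 12 of 27 alternatives. The higher ones were Nnat (2.68) and Snrpn (2.17). The count of lower imprinted genes fell to 1 without WT day -2 library B, Mfn1-/- day -2 library A, WT day +8 library A or WT day +8 library B, and to 2 or 3 without any 1 of 5 others.

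Of 23 interferon-stimulated genes, 1 had a higher response (Psmb9, an immunoproteasome subunit, log2 2.21, lost under 12 of 26 alternatives) and 0 a lower one, with a median of -1.12. At day +8 the gap between the lines was lower for 17 of them and higher for 0 (median -2.19), and at day -2 lower for 6 (median -1.25). Over all genes tested, the gap was lower for 22.5% at day +8 and for 6.25% at day -2. Isg15 had a gap of -3.11 at day -2 and -5.17 at day +8 and a response difference of -2.06 (adjusted p = 0.105). With WT libraries D to F, 16 of the 23 had a lower response, as did 1601 of all 13697 genes tested. Of 15 targets of the glucocorticoid receptor, 2 had a higher response and 0 a lower one (median 0.22), against 8.14% higher over all genes tested. The 2 were Angptl4 and the metallothionein Mt2 (log2 1.68), whose exons overlap another gene over 73.5% of their length. The call of Mt2 was lost under 8 of 26 alternatives, and 0 of the 15 had a higher response with all 6 WT libraries of each day. Per1 and Tsc22d3, which dexamethasone induces directly, gave 0.45 (adjusted p = 0.187) and -0.42 (adjusted p = 0.323).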
